A study of Mus musculus with 12 samples.

Results

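The 7 genes described here are the mouse p53 family, Trp53, Trp63 and Trp73, and 4 genes whose products act on or with p53, Mdm2, Mdm4, Cdkn2a and Trp53bp1. They were taken by gene symbol from the 22630 genes counted in each of 12 tumors, and each symbol matched 1 gene. The question of the study was what expression of the mutant protein p53R270H changes in pancreatic cancer. KCip53-1, a mouse pancreatic cancer cell line, was grown subcutaneously in immunocompromised NSG mice of 8 to 10 weeks, and whole unsorted tumors were sequenced as polyA+, non-stranded libraries. The no-dox tumors (n = 4) came from mice never given doxycycline. The plus-dox tumors (n = 4) came from mice given 0.2 g/l doxycycline in a sucrose solution as drinking water for 36 days, and the off-dox tumors (n = 4) from mice given it for 33 days and then taken off it for 3 days. The study had grown its KCip53 lines in culture with doxycycline, so the cells of all groups had met it before injection. Dox-exposed below refers to the mice and means the plus-dox and off-dox tumors.

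All groups carry the same alleles, since KCip53-1 is 1 line, sorted by its dsRed reporter from the primary tumor of 1 mouse whose alleles include Ptf1a-Cre, TREp53R270H and R26rtTa/rtTa. Doxycycline lets the rtTa protein switch on the tetracycline-responsive element in front of the p53R270H cDNA. The study genotyped its KCip53 lines and found the mutant sequence of the transgene but no normal Trp53 sequence in the tumor cells. Reads from the transgene, from anything still transcribed at the Trp53 locus of the line and from the normal Trp53 of host cells are all counted on the 1 Trp53 gene. Each mouse carried 2 tumors and the labels do not tie tumors to mice, so the p-values below measure the spread between these tumors and some tumors may share a host.

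The p53 protein is a transcription factor that is held at a low level in unstressed cells, mostly because Mdm2, itself a p53 target, marks it for degradation. Mdm4 (MdmX) binds the p53 activation domain and limits its activity, while p19Arf, one of the products of Cdkn2a, holds Mdm2 away from p53. Missense p53 proteins often accumulate through slower protein turnover rather than more RNA, and the Cdkn2a locus is commonly lost in pancreatic cancer.

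The site of the mutation and the 2 starts of Cdkn2a are shown because they set what the gene totals contain. In the mm9 annotation the R270H codon lies in coding exon 7 of 10 of Trp53 (transcript Trp53-201, 390 codons), at chr11:69403075-69403211 on the plus strand. The exon is printed below as the reference has it, with the arginine codon 270 in capitals. A read across this exon counts on Trp53 whether it carries arginine or histidine there, so the gene total does not separate the mutant from the normal RNA.
Trp53 coding exon 7: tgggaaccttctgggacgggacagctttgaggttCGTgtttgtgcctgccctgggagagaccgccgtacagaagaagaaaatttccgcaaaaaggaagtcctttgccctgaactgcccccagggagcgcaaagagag

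Cdkn2a makes p19Arf and p16Ink4a from separate first exons that join shared exons, and a gene total adds both. The 250 bases before each RefSeq start (GRCm38.p6, minus strand) are printed below, first the upstream start at chr4:89294620-89294869 and then the downstream one at chr4:89282193-89282442. The letters TTTCCCGC, an E2F-type motif, were searched on both strands and are in capitals. The upstream window holds 1 match, whose first base lies 99 bases before the start, and the downstream window holds none. Of all 32851 RefSeq promoter windows of this length, 0.895% hold the motif. The windows have 78.4% and 60% G and C. None of the other promoter windows of the 6 genes with an entry holds the motif.
Cdkn2a upstream start: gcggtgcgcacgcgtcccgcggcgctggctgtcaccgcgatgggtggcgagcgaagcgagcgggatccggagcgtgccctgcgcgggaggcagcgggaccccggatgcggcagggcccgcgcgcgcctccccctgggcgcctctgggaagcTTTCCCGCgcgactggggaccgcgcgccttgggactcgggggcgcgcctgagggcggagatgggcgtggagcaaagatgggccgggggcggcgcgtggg
Cdkn2a downstream start: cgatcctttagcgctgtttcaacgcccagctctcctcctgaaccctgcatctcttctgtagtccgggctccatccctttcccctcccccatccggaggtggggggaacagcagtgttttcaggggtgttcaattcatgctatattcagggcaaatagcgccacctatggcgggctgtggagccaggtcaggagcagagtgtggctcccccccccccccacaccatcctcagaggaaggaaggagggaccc

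The libraries held 19845923 to 33137609 reads counted on genes. The share of mapped reads that was counted on genes was 88.4% to 89.4% for no-dox, 82.2% to 87.1% for plus-dox and 81.1% to 85.8% for off-dox, so it separated the no-dox tumors from all others. All 10 epithelial markers examined, keratins and junction genes among them, were detected, with a summed level of 2311 to 3095 RPKM for no-dox, 1364 to 2034 RPKM for plus-dox and 1067 to 2662 RPKM for off-dox. RPKM scales reads by exon length and by the mapped reads of the library. Plus-dox tumor 2 had the lowest epithelial marker score, a mean of 4.68 log2 CPM (counts scaled by library size) against 6.15 to 8.22 in the other tumors. The 10 skeletal muscle markers summed to 11.6 to 198 RPKM for no-dox, 166 to 498 RPKM for plus-dox and 13.7 to 1400.1 RPKM for off-dox. In whole tumors, fewer cells of a type and less RNA per cell cannot be told apart.

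Compared per exon length over all 12 tumors, Cdkn2a was the most abundant of the 7 genes, with a mean of 174 RPKM ± 46 (SD, n = 12). Trp53 followed at 46.8 RPKM ± 5.5 and Mdm2 at 26.9 RPKM ± 4.9. Mdm4 averaged 13.0 RPKM ± 3.1 and Trp53bp1 8.52 RPKM ± 0.97. Trp63 averaged 0.102 RPKM ± 0.057, and Trp73 was at or near 0. Cdkn2a ranked 353rd and Trp53 1498th of all genes in the files. Neighbors in this order were apart in every group with the exception of Mdm4 and Trp53bp1, whose no-dox ranges overlapped and where Mdm4 was the higher in 11 of 12 tumors. In mm9 the spans counted are chr11:69393861-69405375 for Trp53 and chr16:25683851-25892174 for Trp63, both on the plus strand. The others lie on the minus strand, Trp73 at chr4:153430358-153514317, Cdkn2a at chr4:88920377-88940523, Mdm2 at chr10:117125961-117147772, Mdm4 at chr1:134886422-134921925 and Trp53bp1 at chr2:121022465-121097122.

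**Figure D1:**
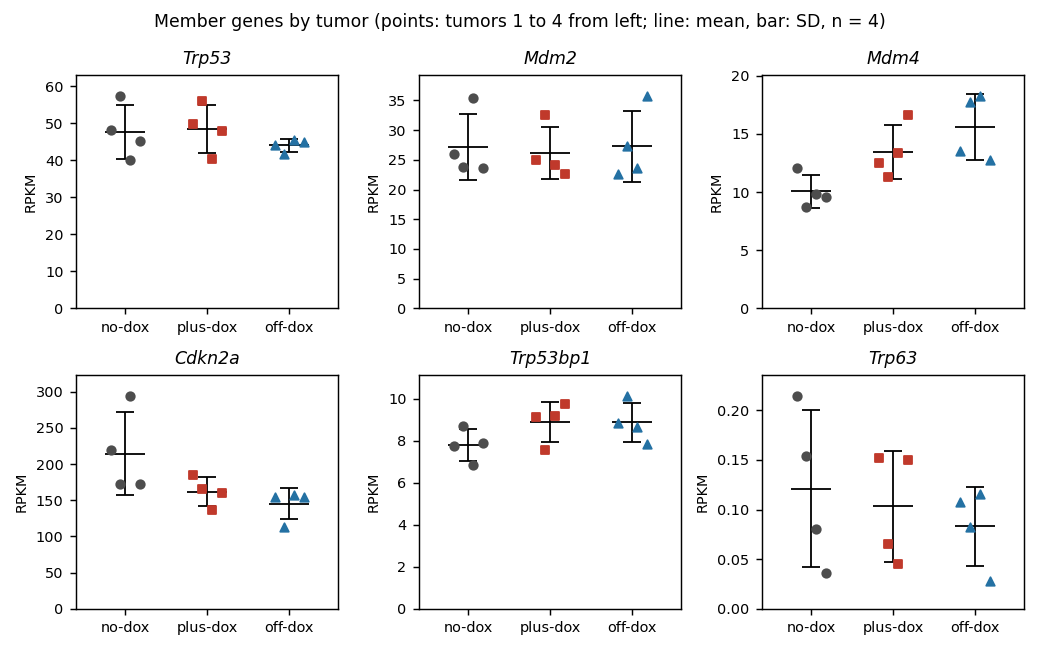
RPKM of 6 of the 7 genes (vertical axes, each from 0) by group of tumors, with 1 point per tumor in the order 1 to 4 and the mean ± SD (n = 4) as line and bar. Trp53 and Mdm2 overlap in all 3 groups, whereas the 4 off-dox tumors lie above the 4 no-dox tumors for Mdm4 and below them for Cdkn2a.

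Trp53, the gene whose mutant form doxycycline switches on, was not detectably higher in tumors labelled plus-dox. Its RPKM was 48.2, 57.4, 40.1 and 45.2 in no-dox tumors 1 to 4. Plus-dox tumors 1 to 4 had 49.8, 56.0, 40.4 and 47.9 RPKM. The off-dox tumors 1 to 4 had 44.2, 41.6, 45.4 and 44.9 RPKM. The plus-dox range lay inside the no-dox range, and the off-dox tumors were the most alike, with an SD of 1.7 RPKM against 7.3 in no-dox and 6.4 in plus-dox tumors. The edgeR log2 fold change of plus-dox against no-dox was 0.04 (SE 0.11, 95% interval −0.20 to 0.28, adjusted p = 0.89), which bounds the change of total Trp53 RNA between 0.868-fold and 1.21-fold. For off-dox against no-dox it was −0.08 (95% interval −0.32 to 0.16, edgeR adjusted p = 0.70) and for off-dox against plus-dox −0.12 (−0.36 to 0.12, edgeR adjusted p = 1). The sign for plus-dox against no-dox turned with limma-voom and with the epithelial marker level as a covariate, and the sign for off-dox against no-dox turned with the share of reads on genes as a covariate. The Trp53 total therefore gives no check of the doxycycline labels, and the groups are named below as labelled. The paper stained subcutaneous KCip53 tumors for dsRed, the reporter expressed with the mutant. It saw none in no-dox tumors, heterogeneous staining in plus-dox tumors and fewer positive cells in off-dox tumors. Whether these were the tumors sequenced is not stated. The nearest gene in the files, Wrap53, lies 1034 bases from Trp53 on the other strand, and no other gene overlaps the span of any of the 7 genes.

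The other family members were scarce. Trp63, whose protein maintains stratified epithelia, had 213 counts over the 12 tumors, 5 to 44 per tumor. Its levels were 0.0356 to 0.214 RPKM for no-dox, 0.0449 to 0.152 RPKM for plus-dox and 0.0275 to 0.116 RPKM for off-dox tumors, and the groups overlapped. The interval for plus-dox against no-dox, −1.48 to 1.01 on the log2 scale (edgeR adjusted p = 0.86), spans changes of over 2-fold in either direction, so smaller ones were not detectable at this depth. The stratified epithelium and skin markers summed to between 14.0 and 55.4 RPKM in the same tumors, with the 3 highest sums in no-dox. Trp73, which encodes the p53 relative known from neural and ciliated cells, had 4 counts in all, 2 in no-dox tumor 1 and 1 each in no-dox tumor 3 and plus-dox tumor 4. It did not reach the 10 counts needed for a test, and the 9 tumors with none allow a level of up to 0.0152 to 0.0236 RPKM (3 counts, counting error only).

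Mdm2, the ubiquitin ligase that p53 induces and that degrades p53, did not separate the groups. It measured 26.0, 23.8, 35.4 and 23.6 RPKM in no-dox tumors 1 to 4. The plus-dox tumors had 25.0, 32.6, 24.2 and 22.7 RPKM. The off-dox tumors had 22.6, 27.2, 23.6 and 35.8 RPKM. Each group thus held 1 tumor above 32 RPKM and 3 tumors between 22.6 and 27.2 RPKM. The log2 fold changes were −0.05 (95% interval −0.48 to 0.38) for plus-dox against no-dox, 0.04 (−0.39 to 0.46) for off-dox against no-dox and 0.09 (−0.34 to 0.51) for off-dox against plus-dox, with edgeR adjusted p = 0.91, 0.93 and 1. The first sign turned with the share of reads on genes as a covariate and the second with the epithelial marker level.

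Mdm4, the partner of Mdm2 that restrains p53 without degrading it alone, was the only one of the 7 genes called in any comparison. A gene was called at an edgeR adjusted p under 0.1 with a change over 1.5-fold, a mean over 0.25 RPKM and an exon length over 250 bases. It measured 12.1, 8.72, 9.81 and 9.60 RPKM in no-dox tumors 1 to 4. Plus-dox tumors 1 to 4 had 12.5, 11.3, 13.4 and 16.6 RPKM. Off-dox tumors 1 to 4 had 13.5, 17.7, 18.3 and 12.7 RPKM. Every off-dox tumor was above every no-dox tumor, while plus-dox tumor 2 lay below no-dox tumor 1. Mdm4 rose 1.58-fold in off-dox against no-dox (log2 0.66, SE 0.15, 95% interval 0.33 to 0.99, edgeR adjusted p = 0.084), and the exact two-sided permutation test over the 70 arrangements gave p = 0.029, the smallest they allow. It was 1 of 6 members tested that was called, where 1.34% of all 17561 genes tested were called in this comparison, 1.03% as higher. DESeq2 and limma-voom also called Mdm4 there (log2 0.67 in both, DESeq2 and limma adjusted p = 0.0043 and 0.036), beside 3.5% and 3.65% of all genes. Plus-dox against no-dox gave a log2 fold change of 0.43 (SE 0.15, 95% interval 0.10 to 0.76), with an edgeR adjusted p of 0.33 and an exact permutation p of 0.057. The difference between off-dox and plus-dox tumors did not pass the test (log2 0.23, 95% interval −0.10 to 0.56, edgeR adjusted p = 1), and both comparisons with no-dox share the no-dox tumors.

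Mdm4 was set beside the share of reads on genes. The off-dox tumors 2 and 3, with the highest Mdm4, had 82.0% and 81.1% of mapped reads on genes, and the 4 no-dox tumors, with shares of 88.4% or more, were with plus-dox tumor 2 (86.5%) the 5 lowest in Mdm4 on the log2 CPM scale. Since this share separated the no-dox tumors from the others, the relation was computed within the 8 dox-exposed tumors, a choice made after seeing the data. Of these, the off-dox tumors had shares of 81.1% to 85.8% and a mean Mdm4 of 15.6 RPKM. The plus-dox tumors had 82.2% to 87.1% and 13.4 RPKM. Group was not adjusted for within these 8 tumors. There Pearson's r was −0.85 (exact permutation p = 0.011, adjusted over 6 genes 0.068) and Spearman's rho −0.86 (exact permutation p = 0.011, adjusted 0.064), and without the 2 tumors farthest from the median share r was −0.69. For the other 5 genes r within these 8 tumors was between −0.52 and 0.65, with adjusted exact permutation p of 0.15 or more. With the share as a covariate in the edgeR fit, the Mdm4 log2 fold change of off-dox against no-dox was 0.10 (adjusted p = 1.0) and no gene was called in any comparison. Group and share cannot be told apart by this design, as no dox-exposed tumor had a no-dox share. The call was also lost when any no-dox tumor, plus-dox tumor 3 or 4, or off-dox tumor 2, 3 or 4 was left out, with log2 fold changes of 0.58 to 0.74. Of all genes, edgeR then called 0.109% without plus-dox tumor 3, 0.00572% without no-dox tumor 3 and 0% in the rest of these fits. The unadjusted edgeR p of Mdm4 in them was 0.00061 to 0.0037. The skeletal muscle marker level correlated with Mdm4 over 12 tumors at r = 0.62 (permutation p = 0.030, adjusted over 18 relations 0.44) and rho = 0.66 (adjusted 0.40), and without the 2 tumors farthest from the median r was 0.41 (permutation p = 0.24) and rho 0.44. The part of muscle content in the Mdm4 values was not tested further.

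**Figure D2:**
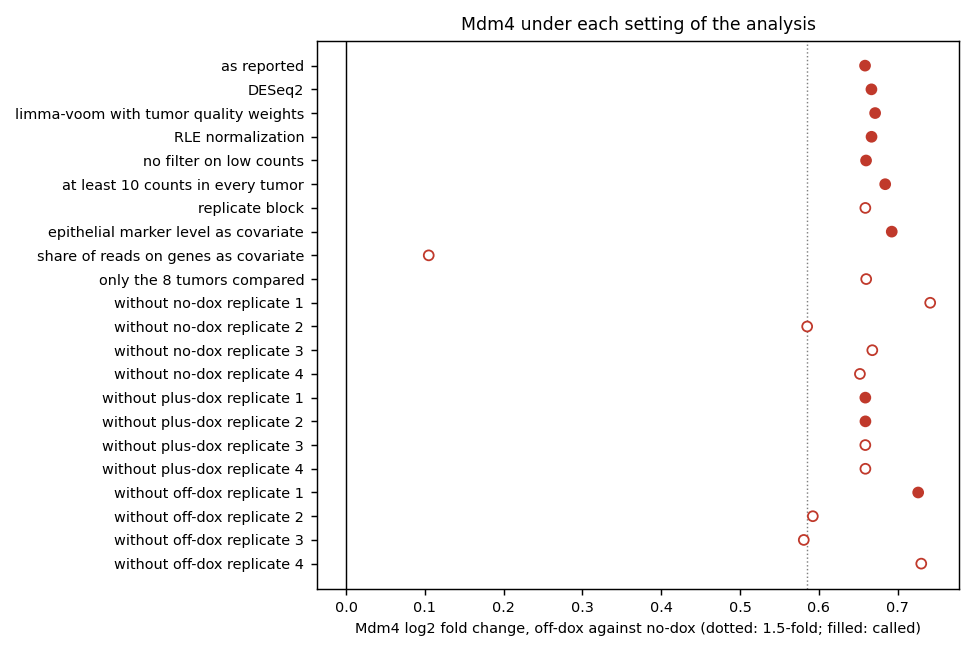
Log2 fold change of Mdm4 in off-dox against no-dox tumors (horizontal axis) under each setting of the analysis (rows), filled where Mdm4 was called and open where it was not, with the dotted line at 1.5-fold. The values lie between 0.58 and 0.74 in all settings but the one with the share of reads on genes as a covariate, at 0.10.

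Cdkn2a, the tumor suppressor locus whose p16Ink4a product inhibits Cdk4 and Cdk6, was well expressed in every tumor and lower in off-dox tumors by range, though not called. It measured 219, 172, 294 and 173 RPKM in no-dox tumors 1 to 4. Plus-dox tumors 1 to 4 had 185, 165, 137 and 160 RPKM. Off-dox tumors 1 to 4 had 155, 113, 157 and 155 RPKM. All 4 off-dox tumors lay below all 4 no-dox tumors, and plus-dox tumor 1 lay within the no-dox range. Off-dox against no-dox gave a log2 fold change of −0.54 (SE 0.18, 95% interval −0.94 to −0.14), with an edgeR adjusted p of 0.14 and an exact permutation p of 0.029. Together with Mdm4, 2 of the 6 members tested had ranges that did not overlap in this comparison, where this held for 11.4% of all genes tested (4.99% higher and 6.4% lower). Plus-dox against no-dox gave −0.41 (SE 0.18, 95% interval −0.80 to −0.01), with an edgeR adjusted p of 0.36 and an exact permutation p of 0.14. Off-dox against plus-dox gave −0.14 (95% interval −0.53 to 0.26, edgeR adjusted p = 1).

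No-dox tumor 3 carried much of the Cdkn2a difference. Without it the log2 fold change was −0.32 for off-dox against no-dox (edgeR adjusted p = 0.26) and −0.19 for plus-dox against no-dox (edgeR adjusted p = 0.54). With the epithelial marker level as a covariate the off-dox value was −0.61 and passed the call (edgeR adjusted p = 0.092). With the share of reads on genes as a covariate it was −0.26 (edgeR adjusted p = 1.0), and the plus-dox value was −0.21. DESeq2 and limma-voom gave off-dox values of −0.53 and −0.57 with adjusted p = 0.072 and 0.066, under the limit of 0.1 but also under the 1.5-fold limit. Cdkn2b, the p15Ink4b gene 11674 bases away on the same strand, was examined as the neighbor after its values were seen. It averaged 87.8 RPKM ± 13.2 (SD, n = 4) for no-dox, 73.0 ± 4.5 for plus-dox and 74.4 ± 17.2 for off-dox tumors, and off-dox against no-dox gave a log2 fold change of −0.21 (edgeR adjusted p = 0.50).

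Trp53bp1 encodes 53BP1, a protein that binds p53 and steers the repair of broken DNA. Relative to its mean it varied least among the 7 genes in no-dox tumors (SD 9.95% of the mean), at 7.77, 8.72, 6.82 and 7.89 RPKM. The plus-dox tumors had 9.11, 7.55, 9.19 and 9.75 RPKM. The off-dox tumors had 8.84, 10.1, 8.67 and 7.86 RPKM. The groups overlapped in every pair. The log2 fold change was 0.20 (SE 0.10, 95% interval −0.02 to 0.43, edgeR adjusted p = 0.40) for plus-dox against no-dox and 0.22 (SE 0.10, −0.01 to 0.44, edgeR adjusted p = 0.26) for off-dox against no-dox, where the exact permutation p was 0.057. Off-dox against plus-dox gave 0.01, with an interval of −0.21 to 0.24. With the epithelial marker level as a covariate, off-dox against no-dox gave 0.29 (edgeR adjusted p = 0.090), under the 1.5-fold limit. With the share of reads on genes as a covariate it gave 0.013.

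**Figure D3:**
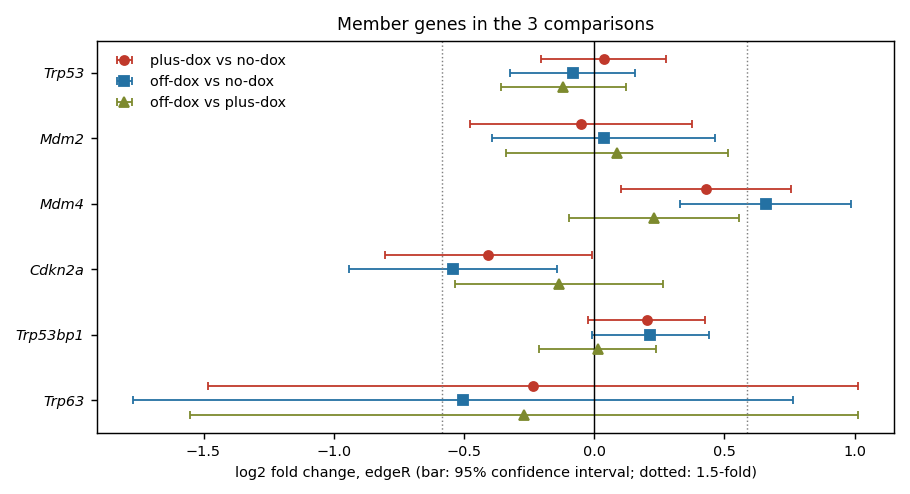
Log2 fold change (horizontal axis) with its 95% confidence interval from edgeR for 6 genes in the 3 comparisons, each from 4 tumors per group, with dotted lines at 1.5-fold. The Mdm4 intervals lie above 0 and the Cdkn2a intervals below 0 in both comparisons with no-dox, the Trp53 intervals stay within 1.5-fold, and the Trp63 intervals are the widest.

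In plus-dox against no-dox, edgeR called 0 of the 6 members tested, as did DESeq2 and limma-voom. Of the 17561 genes tested 0% were called by edgeR, 0.729% by DESeq2 and 0.638% by limma-voom. With edgeR 13.7% had an unadjusted p under 0.05, which held for 2 members, Mdm4 and Cdkn2a. No member had ranges that did not overlap there (7.77% of all genes tested). In off-dox against plus-dox, 0 members were called by any of the 3 tools, beside 0% of all genes with edgeR and limma-voom and 0.0342% with DESeq2. With edgeR 0 members had an unadjusted p under 0.05, beside 3.06% of all genes. No member had ranges that did not overlap in this comparison (1.49% of all genes).

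Among the 15 pairs of the 6 tested members, 1 pair correlated across the 12 tumors after adjustment. Cdkn2a and Trp53bp1 ran in opposite directions, with Pearson's r = −0.87 on log2 CPM (permutation p = 5e-05, adjusted 0.00075) and Spearman's rho = −0.83 (permutation p = 0.0015, adjusted 0.022). No-dox tumor 3 had the highest Cdkn2a and the lowest Trp53bp1, and off-dox tumor 2 the reverse. Without these tumors r was −0.76 (adjusted permutation p = 0.043), and on log2 RPKM it was −0.77 (adjusted permutation p = 0.046). The points share library, normalization and group. Mdm4 correlated with Trp53bp1 at r = 0.66 (permutation p = 0.021, adjusted 0.16, rho = 0.70 with adjusted p = 0.073) and with Cdkn2a at r = −0.60 (permutation p = 0.036, adjusted 0.18, rho = −0.73 with adjusted p = 0.072), neither past 0.05 after adjustment. Without the 2 tumors farthest from the Mdm4 median these were 0.86 (adjusted permutation p = 0.023) and −0.79 (adjusted permutation p = 0.036). Trp53 and Mdm2 did not correlate (r = −0.04, permutation p = 0.91, adjusted 0.97, and rho = −0.14 with adjusted p = 0.77).

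**Figure D4:**
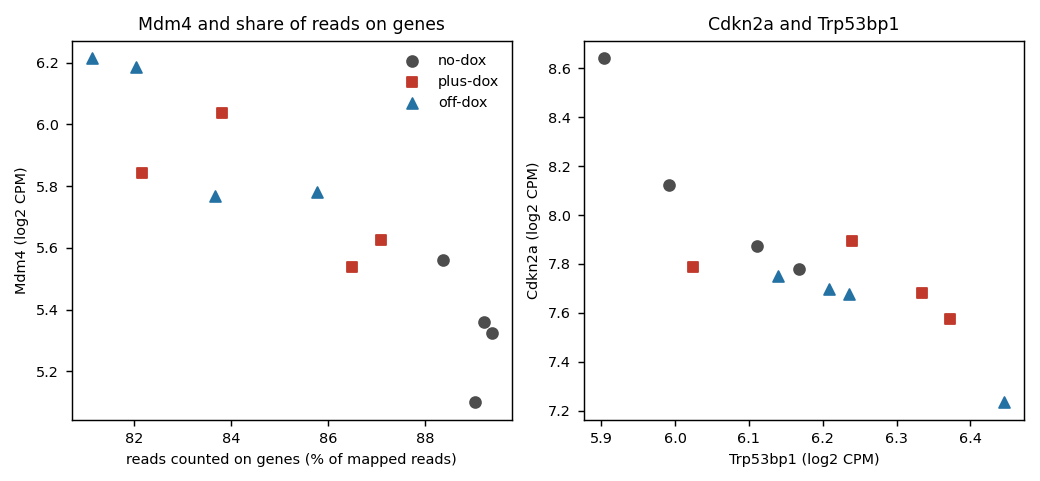
Left, Mdm4 (log2 CPM) against reads on genes as a percent of mapped reads, and right, Cdkn2a against Trp53bp1 (both log2 CPM), with 1 point per tumor and the groups by color and shape. The no-dox tumors sit at 88.4% to 89.4% with low Mdm4. Among the dox-exposed tumors Mdm4 is mostly lower where the share is higher (r = −0.85, exact permutation p adjusted over 6 genes 0.068). Cdkn2a falls as Trp53bp1 rises across the 12 tumors (r = −0.87).

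None of the 18 relations of the 6 members with the epithelial, fibroblast and skeletal muscle marker levels passed 0.05 after adjustment. The lowest p after that of Mdm4 with muscle was that of Mdm2 with the epithelial level, at r = −0.57 (permutation p = 0.049, adjusted 0.44) and rho = −0.54 (adjusted 0.67). Without off-dox tumor 4 and plus-dox tumor 2 this r was −0.13. Those 2 tumors had the lowest epithelial levels and were the highest Mdm2 tumors of their groups.

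The genes whose log2 CPM pattern over the 12 tumors was most like each member are given as a description, among 12693 genes above 1 RPKM. Mdm4 ran closest to 2310042D19Rik (r = 0.99), Fam193b (0.97) and Ttc14 (0.96). Mdm2 ran closest to Golt1b (r = 0.98), Morf4l2 (0.97) and Emp1 (0.97). For Cdkn2a these were Nol7 (r = 0.95), Psmb5 (0.94) and Stoml2 (0.94), the second a proteasome subunit. For Trp53bp1 they were Parp4 (r = 0.97), Neurl4 (0.96) and Cdk5rap2 (0.95). Trp53 had no gene above 0.89, its nearest being Orai2 (r = 0.89), Ncln (0.87) and Nat15 (0.85). Trp63, at its few counts, was nearest to Tatdn3, Rabl2 and Chpt1 (r = 0.87, 0.87 and 0.86).

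The wider pathway was examined through 40 genes that modify or bind p53 and 39 of its known target genes, all of them tested. None of the 40 regulators was called by edgeR, DESeq2 or limma-voom in any of the 3 comparisons. Of all genes, these tools called 1.34%, 3.5% and 3.65% in off-dox against no-dox. The same shares were 0%, 0.729% and 0.638% in plus-dox against no-dox, and 0%, 0.0342% and 0% in off-dox against plus-dox. The median log2 fold change of the regulators was −0.02 in plus-dox and −0.04 in off-dox against no-dox, beside 0.01 for all genes in both. At an unadjusted p under 0.05 were 6 regulators in plus-dox against no-dox, beside 13.7% of all genes, and 14 in off-dox against no-dox, beside 20.4% of all genes. In off-dox against plus-dox 1 regulator was under 0.05, beside 3.06% of all genes.

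Of the kinases in this group, Csnk1a1, which encodes casein kinase 1 alpha, a partner of Mdm4, averaged 114 RPKM ± 5 (SD, n = 4) for no-dox, 95.1 ± 5.3 for plus-dox and 90.9 ± 8.6 for off-dox tumors. Its off-dox log2 fold change against no-dox was −0.30 (edgeR adjusted p = 0.11), and neither dox-exposed group overlapped no-dox. Among the 40 regulators, 3 were higher and 4 lower without overlap in plus-dox against no-dox, beside 7.77% of all genes. In off-dox against no-dox 4 regulators were higher and 5 lower without overlap, beside 11.4% of all genes. Plk3, a stress-responsive polo-like kinase, averaged 5.02 RPKM ± 0.49 for no-dox, 7.21 ± 1.89 for plus-dox and 7.04 ± 0.36 for off-dox tumors (off-dox log2 fold change 0.52, edgeR adjusted p = 0.13). Both dox-exposed groups lay above no-dox without overlap for Plk3. Mapk14 (p38 alpha) had log2 fold changes of 0.05 and −0.08 in plus-dox and off-dox.

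Of the ubiquitin, acetylation and methylation enzymes, Trim28, Setd8 and Smyd2 were the most abundant, and their log2 fold changes against no-dox lay between −0.10 and 0.03. Huwe1, a ubiquitin ligase of p53 and p19Arf-binding protein, was singled out after its values were seen, as the only regulator with an adjusted p under 0.1. It averaged 18.96 RPKM ± 2.3 for no-dox, 24.2 ± 2.6 for plus-dox and 27.5 ± 3.2 for off-dox tumors. Its off-dox log2 fold change of 0.57 (edgeR adjusted p = 0.087) stayed under the 1.5-fold limit, and both dox-exposed groups lay above no-dox without overlap. The ribosomal proteins Rpl5, Rpl11 and Rpl23, which can bind Mdm2, averaged 1616, 1196 and 610.4 RPKM over 12 tumors, and the off-dox log2 fold changes were 0.03, −0.20 and −0.25, with edgeR adjusted p = 0.95, 0.45 and 0.28.

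None of the 39 targets was called by edgeR in any comparison. Of all genes edgeR called 1.34% in off-dox against no-dox, and 0% in plus-dox against no-dox and in off-dox against plus-dox. Limma-voom called 1 in plus-dox against no-dox, Perp (log2 fold change −0.68, limma adjusted p = 0.094), beside 0.638% of all genes. DESeq2 and limma-voom called 1 in off-dox against no-dox, Dram1, an autophagy gene named after its values were seen (log2 fold changes −1.30 and −1.39, DESeq2 and limma adjusted p = 0.039 and 0.042). These tools called 3.5% and 3.65% of all genes in that comparison. The median log2 fold change of the targets was 0.04 in plus-dox and 0.03 in off-dox against no-dox, beside 0.01 for all genes. Of the 39 targets 7 had an unadjusted p under 0.05 in plus-dox against no-dox, beside 13.7% of all genes, and 7 in off-dox against no-dox, beside 20.4% of all genes. In off-dox against plus-dox 0 targets did, beside 3.06% of all genes.

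Cdkn1a, the p21 cell cycle inhibitor and the classical p53 target, averaged 23.8 RPKM ± 1.8 (SD, n = 4) for no-dox, 30.5 ± 8.5 for plus-dox and 30.8 ± 4.6 for off-dox tumors. Its log2 fold changes against no-dox were 0.37 and 0.40 (edgeR adjusted p = 0.42 and 0.28). By qRT-PCR the paper reported the other direction, lower Cdkn1a with doxycycline than without it, in KCip53 pancreata and in cultured cells. Phlda3, an Akt inhibitor, averaged 69.3 RPKM ± 5.3 for no-dox, 58.7 ± 4.4 for plus-dox and 53.5 ± 8.8 for off-dox tumors. Neither dox-exposed group overlapped no-dox, and the off-dox log2 fold change was −0.34 (edgeR adjusted p = 0.14). Among the 39 targets, 1 was higher and 3 lower without overlap in each comparison with no-dox. Of all genes this held for 7.77% in plus-dox and 11.4% in off-dox against no-dox. Zmat3, an RNA-binding p53 target, and Ei24 had an adjusted p under 0.1 in off-dox against no-dox and stayed under the 1.5-fold limit, at log2 fold changes of 0.44 and −0.37 (edgeR adjusted p = 0.090 and 0.093). Zmat3 was singled out after its values were seen, and both dox-exposed groups lay above no-dox without overlap for it.

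Other abundant targets did not pass the test. Gadd45a, a stress-response gene, had log2 fold changes of −0.54 in plus-dox and −0.32 in off-dox against no-dox (edgeR adjusted p = 0.34 and 0.42). Ccng1, which encodes cyclin G1, had 0.09 and 0.37 (edgeR adjusted p = 0.83 and 0.28). Of the apoptosis genes, Bax had −0.07, and Perp, a junction protein of epithelia, had −0.57 in plus-dox and −0.50 in off-dox (edgeR adjusted p = 0.33 and 0.18). Perp ranged from 65.8 RPKM upward in no-dox and averaged 47.1 RPKM ± 7.9 in plus-dox tumors. The epithelial markers summed to 2311 to 3095 RPKM in no-dox, 1364 to 2034 RPKM in plus-dox and 1067 to 2662 RPKM in off-dox tumors. A relation of Perp to epithelial content was not tested. Of the secreted products, Igfbp3 and Thbs1 had log2 fold changes of 0.34 and 0.39 in plus-dox against no-dox (edgeR adjusted p = 0.65 and 0.37). Cdh1, the epithelial cadherin, averaged 146 RPKM ± 49 for no-dox, 89.9 ± 45.7 for plus-dox and 92.0 ± 50.1 for off-dox tumors (edgeR adjusted p = 0.53 and 0.48). By qRT-PCR the paper reported lower Thbs1 with doxycycline in KCip53 pancreata and cultured cells, and lower Cdh1 in the pancreata.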

How the data were processed

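RNA was extracted from 12 bulk subcutaneous tumors. The authors mapped 50-base single-end reads to mm9 and counted them over unambiguous exon spans of a condensed, unstranded RefSeq annotation, and the submitters' processing notes name CASAVA 1.8.2, Bowtie 0.12.8, TopHat 1.4.1 and bedtools 2.16.2. The deposited estimated counts per gene are not all whole and were rounded for the tests. The deposited RPKM values were computed by the authors from exonic coverage and total mapped reads, and were used for levels.

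Genes with at least 10 counts over the 12 tumors (17561 of 22630) were fitted with edgeR 4.0.16 (R 4.3.3, TMM, quasi-likelihood) in 1 model of the 3 groups, with Benjamini-Hochberg adjustment over all genes. The call limits, after the study's methods, were more than 1.5-fold, more than 0.25 RPKM on average, more than 250 bases of exon and less than 0.1 for the adjusted p. Trp73 fell below the filter and was not tested, so 18 and 15 relations were tested in place of the 21 planned in each family. Single genes were also compared by exact permutation of log2 CPM (prior count 2), and correlations over 12 tumors by 100000 permutations. The pipeline was tested on simulated data. DESeq2 1.42.0, limma 3.58.1, other filters, covariates, a replicate block and leaving out each tumor were tried as alternatives. Counts give counting error only, and depth per tumor was 19845923 to 33137609 counted reads. Chi-square comparison of counts found no tumor that copied another of its own group, and pairs across groups were not compared in this way.

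The 7 genes and the gene lists were chosen with earlier results of these data known. Beside the 7 genes, the text names the 3 genes of highest mean RPKM of each regulator and target list, any gene of these lists that was called, Cdkn1a, Thbs1 and Cdh1, which the study measured by qRT-PCR in other material than these tumors, and the 3 genes most like each member by Pearson's r. An allele of the line and 1 gene that this rule names are not reported here. Promoter windows are RefSeq (GRCm38.p6), with entries for 6 of the 7 genes, and the Trp53 exon was read from the mm9 genome by its annotation. The T and NK cell markers averaged −1.09, −0.30 and −0.34 log2 CPM in no-dox, plus-dox and off-dox tumors, the macrophage markers 7.98, 8.08 and 8.14, and the fibroblast markers 8.07, 8.48 and 7.99.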

Additional observations from a re-analysis of the deposited data

Results flagged for a closer look

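Over the genes named above, 87 groups of 4 tumors were examined and 4 held a tumor that stood apart by Dixon's ratio, a share near the 1 in 20 that chance gives. Cdkn2a was 112.7 RPKM in off-dox tumor 2, below the other 3 off-dox tumors at 154.7 to 156.9 RPKM. Phlda3 was 77.3 RPKM in no-dox tumor 1, above the others at 66.1 to 67.3 RPKM. Igfbp3 was 581 RPKM in plus-dox tumor 2, above the others at 299.0 to 324.7 RPKM, and this tumor also had the lowest epithelial marker level. Cdkn2b was 66.3 RPKM in plus-dox tumor 3, below the others at 74.7 to 75.8 RPKM.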

How the results depend on the processing

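Of 375 log2 fold changes of the 6 tested members under alternative settings, 339 kept their direction and their side of the threshold, 12 lost the call, 1 gained it and 23 changed sign, none of the last from a called value. Mdm4 in off-dox against no-dox (0.66) was not called with the replicate block (0.66, edgeR adjusted p = 0.14), with only the 8 tumors compared (0.66, adjusted p = 0.14) or with the share of reads on genes as a covariate (0.10), and leaving out 1 tumor gave 0.58 to 0.74. It was called with DESeq2, limma-voom, RLE normalization, either other count filter and the epithelial covariate (0.66 to 0.69). Cdkn2a in off-dox against no-dox was called only with the epithelial covariate (−0.61), had an adjusted p under 0.1 but too small a change with DESeq2 (−0.53) and limma-voom (−0.57), and was −0.26 with the share covariate. Signs turned for Trp53 in plus-dox against no-dox (limma-voom −0.034, epithelial covariate −0.046, leaving out 1 tumor −0.046 to 0.12) and off-dox against no-dox (share covariate 0.11, leaving out 1 tumor −0.14 to 0.0028), and for Mdm2 in plus-dox against no-dox (share covariate 0.074, leaving out 1 tumor −0.18 to 0.12), off-dox against no-dox (epithelial covariate −0.10, leaving out 1 tumor −0.14 to 0.21) and off-dox against plus-dox (leaving out 1 tumor −0.093 to 0.22). They also turned for Trp53bp1 in off-dox against plus-dox (limma-voom −0.0015, epithelial covariate −0.025, share covariate −0.043, leaving out 1 tumor −0.054 to 0.058) and, leaving out 1 tumor, for Trp63 in plus-dox against no-dox (−0.54 to 0.17) and off-dox against plus-dox (−0.51 to 0.024).

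Genes called in off-dox against no-dox, 235 with edgeR, numbered 615 with DESeq2, 641 with limma-voom, 122 without a filter, 365 with at least 10 counts in every tumor, 0 with the replicate block, 0 with the share covariate and 3 with only the 8 tumors, and 0 to 789 on leaving out 1 tumor, the highest without off-dox tumor 1. In plus-dox against no-dox they numbered 128 with DESeq2, 112 with limma-voom and 0 to 3 on leaving out 1 tumor, against 0. In off-dox against plus-dox they numbered 6 with DESeq2 and 0 to 1 on leaving out 1 tumor, against 0. Members called in off-dox against no-dox, 1 in the reported fit, were 0 with the block, the share covariate or the 8 tumors, 2 with the epithelial covariate and 0 to 1 on leaving out 1 tumor. Regulators called there, 0 in the reported fit, were 1 (Huwe1) with at least 10 counts in every tumor or the epithelial covariate and 0 to 2 on leaving out 1 tumor. Targets called were 1 (Dram1) with DESeq2 or limma-voom and 0 to 3 on leaving out 1 tumor, and 1 (Perp) with limma-voom in plus-dox against no-dox. Pairs of members correlated after adjustment were 3 without the 2 farthest tumors, against 1. The cause of these changes was not tested.

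No pairing of the tumors by replicate number was seen, as same-numbered tumors had a mean correlation of −0.09 over 12 pairs and different numbers 0.04 over 36, and 2 of 12 tumors correlated best with their own number. The labels do not say whether same-numbered tumors were handled together. Few counts limit Trp63 and Trp73.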
